A study of Mus musculus with 8 samples.

Results

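Granulocyte-monocyte progenitors and promyelocytes are the marrow cells that fill the first neutrophil granules. They were taken here as the marrow cells in which Mpo, Elane, Prtn3 and Ctsg together made up at least 0.5% of the cell's RNA molecules while Camp, Ngp and Ltf together stayed under 0.5%. The rule selected 350 of the 5682 marrow cells, among 20012 cells of the whole series. A molecule is counted by its unique molecular identifier (UMI). The comparison group, called later-stage cells, was the 2072 marrow cells with Camp, Ngp and Ltf at 1% or more. Measured RNA values chose both groups, so every RNA difference between them is given as a description without a test. The surface antibodies were not used by the rule and were tested.

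The series is droplet single-cell sequencing of RNA and barcoded antibodies from blood, bone marrow, spleen and tumor of female C57BL6/J mice bearing a subcutaneous tumor of MOPC cells, described in the series title as murine oropharyngeal carcinoma. The labels give the treatment as "MPOC tumor" for every tissue and the genotype as "WT, Genotype_02 (gene knockout mouse model)", which reads as wild-type mice and mice of 1 unnamed knockout in each library. The marrow came from flushed femurs, and the sort kept live Gr1+ cells negative for NK1.1, FcRe, Ter119, B220 and CD3 together with live Gr1- cKit+ cells. Hashtag antibodies mark mouse, organ and condition, but no label ties a hashtag to a mouse or a genotype. 8 hashtags were in use in the marrow, and each was treated as 1 mouse, which is an assumption. The groups compared by hashtag below hold cells of every hashtag in use. All groups come from mice with the tumor, and the mix of genotypes in them is unknown. Cell numbers were levelled before the sort, so shares describe the sorted sample and not the organ. Gr1 recognises Ly6G and Ly6C, so the sort bears on the Ly6C and ckit antibody levels below.

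The marrow RNA library held 64092351 UMIs, with a median of 7999 per cell. The tie between barcodes and tissue rests on the library number in the sample descriptions, and no source states it outright. Of the marrow barcodes, 8 also occurred in blood, 8 in spleen and 0 in tumor, and 1 of these belonged to the 350 cells. The gate cells were deep, with a median of 29047 UMIs and 5482.5 genes against 9781.5 UMIs in the later-stage cells. Median depth was higher in the gate cells of 8 of 8 hashtags, by a log2 ratio of 1.66 ± 0.10 (SD, n = 8), given as a description. Levels are therefore scaled to the total of each sum, and shares of cells with a UMI are given with a depth-matched value. 322 of the 350 cells carried a single hashtag and entered the sums per hashtag, 13 to 64 cells and 327252 to 1798069 UMIs each. The later-stage sums held 64 to 428 cells and 734326 to 5081816 UMIs.

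In the marrow, granulocyte-monocyte progenitors give rise to both neutrophils and monocytes. Cells that enter the neutrophil path first make azurophil granules, loaded with myeloperoxidase and a set of serine proteases, and as promyelocytes are packed with them. They then stop this program and switch to specific and gelatinase granules. The transcription factor Irf8 drives the monocyte and dendritic side of the choice. Gfi1 and Cebpe act on the neutrophil side, Gfi1 by repressing monocyte genes and Cebpe by carrying the cell from azurophil to specific granule production.

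The 4 genes that define the cells lie on 3 chromosomes, and 2 of them are neighbours. By RefSeq on GRCm38.p6, the build of the files' mm10, Mpo (myeloperoxidase) spans chr11:87793784-87804412. Prtn3 (proteinase 3) spans chr10:79879667-79883174 and Elane (neutrophil elastase) follows at chr10:79886312-79888216. Ctsg (cathepsin G) lies at chr14:56099885-56102574. The 250 bases before each start site, from the RefSeq promoters of that build, are shown because these 4 genes are expressed together in the selected cells. They are Mpo chr11:87793534-87793783 on the plus strand, Elane chr10:79886062-79886311 plus, Prtn3 chr10:79879417-79879666 plus and Ctsg chr14:56102575-56102824 minus. Each is written 5′ to 3′ along its gene, with capitals marking matches to 3 motifs searched on both strands.
Mpo: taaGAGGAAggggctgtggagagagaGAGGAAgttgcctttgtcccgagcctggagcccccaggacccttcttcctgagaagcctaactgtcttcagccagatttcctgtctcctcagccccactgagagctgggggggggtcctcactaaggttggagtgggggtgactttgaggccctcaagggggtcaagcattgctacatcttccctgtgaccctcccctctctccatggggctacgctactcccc
Elane: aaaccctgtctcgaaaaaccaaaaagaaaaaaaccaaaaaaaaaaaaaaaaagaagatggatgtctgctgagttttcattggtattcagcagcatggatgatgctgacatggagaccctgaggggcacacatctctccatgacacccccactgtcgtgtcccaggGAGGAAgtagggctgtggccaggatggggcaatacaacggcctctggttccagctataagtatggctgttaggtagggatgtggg
Prtn3: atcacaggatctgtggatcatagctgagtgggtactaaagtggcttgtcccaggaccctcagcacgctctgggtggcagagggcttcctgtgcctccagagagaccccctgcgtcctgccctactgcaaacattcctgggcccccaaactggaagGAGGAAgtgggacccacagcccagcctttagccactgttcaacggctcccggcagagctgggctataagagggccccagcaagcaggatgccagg
Ctsg: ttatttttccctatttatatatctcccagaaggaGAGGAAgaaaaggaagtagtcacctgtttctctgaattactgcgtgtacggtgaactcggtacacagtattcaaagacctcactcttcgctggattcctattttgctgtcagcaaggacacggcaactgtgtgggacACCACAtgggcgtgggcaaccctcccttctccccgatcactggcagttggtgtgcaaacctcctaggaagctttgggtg
GAGGAA, a core sequence bound by PU.1 (the product of Spi1), was present in all 4 promoters, with 2 matches in Mpo and 1 in each of the others. It occurred in 23.4% of 32536 promoters of the same length. TGTGGT, the core bound by RUNX factors, was found in Ctsg alone of the 4, as its reverse complement ACCACA, and in 14% of all promoters. TTGCNNAA, a core of C/EBP sites, was in none of the 4 windows and in 9.6% of all promoters. The motifs do not overlap one another in these windows. A match describes letters and not binding.

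The gate cells made up 6.16% of the marrow cells (exact Clopper-Pearson 95% interval 5.55 to 6.82, counting error only). By hashtag the share was 4.39% at the lowest, 6.17% at the median and 8.99% at the highest (6.68% ± 1.64, SD, n = 8). The same rule found 20 of 6105 spleen cells (0.328%, 0.200 to 0.506), 0 of 7763 blood cells (a count of 0 allows up to 0.0386%) and 0 of 462 tumor cells (up to 0.649%). In the marrow cells selected, the summed share of the 4 azurophil genes ran from 0.502% to 14.9% of a cell's UMIs, with quartiles of 0.838%, 1.33% and 2.25%. Of the 381 marrow cells with an azurophil share of at least 0.5%, 30 also had specific granule genes at 1% or more, which places them in the later-stage group, and 1 lay between the limits. The plot of both shares per cell shows the separation.

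**Figure D1:**
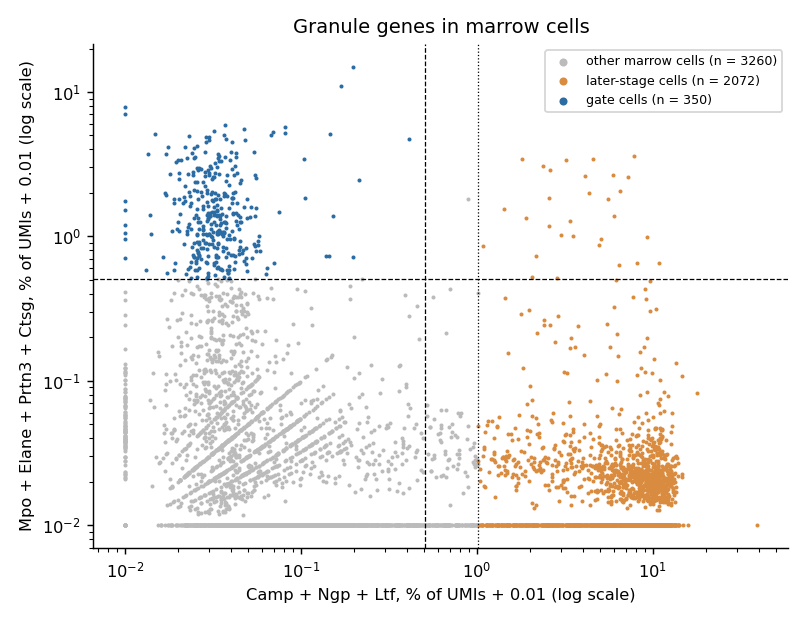
Share of a marrow cell's UMIs in Mpo, Elane, Prtn3 and Ctsg (vertical axis, percent) against its share in Camp, Ngp and Ltf (horizontal axis, percent), 1 point per cell, with 0.01 added and both axes logarithmic; the lines mark the limits of the rule. The 350 gate cells lie at the upper left and most of the 2072 later-stage cells at the lower right, with 30 of the latter above the azurophil limit.

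Of cells near the azurophil threshold, 23 lay between 0.4% and 0.5% with low specific granule genes, and 29 between 0.5% and 0.6%. The cells just outside carried Ms4a3 UMIs in 60.9% and Irf8 UMIs in 65.2%, and those just inside in 65.5% and 75.9%. Cebpe UMIs were in 21.7% of the former and 24.1% of the latter, and the ckit antibody averaged 42.2 and 30.2 UMIs per cell.

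The label was checked on Ms4a3, a membrane protein gene of granulocyte-monocyte progenitors that the rule did not use. It had at least 1 UMI in 312 of the 350 cells (89.1%). The shares were 24.1% in later-stage cells and 10.7% in 121 erythroid reference cells. The reference was marrow cells outside both groups with at least 3 UMIs of the red cell factor Klf1. Their median depth was 28979 UMIs. With every cell thinned to 3000 UMIs the shares were 68.8%, 9.63% and 2.48%. Among the summed levels per hashtag, Ms4a3 was at 530, 712 and 969 CPM (UMIs of the gene scaled to a common total per sum; lowest, median and highest) in the gate cells. In the later-stage cells it was at 50.2, 102 and 143 CPM. Cd34 and Kit, surface proteins of early progenitors, had UMIs in 62.3% and 54.9% of the gate cells and 2.41% and 16.3% of the later-stage cells. At 3000 UMIs per cell the shares were 19.6% and 20.8% against 1.09% and 4.15%. In the erythroid reference Cd34 was in 9.92% and Kit in 90.9% of cells (2.48% and 33.9% thinned). Kit therefore does not set the gate cells apart from other progenitors. The label does not hold evenly, since 70.9% of the cells carried Irf8, a factor of the monocyte side. The 165 cells with Irf8 and no Cebpe (47.1%) also carried the monocyte progenitor genes Csf1r, Ly86, F13a1 and Klf4, as described below. Ms4a3 was at 336 CPM over those cells and at 1495 CPM over the 75 cells with Cebpe and no Irf8. The label thus covers cells with monocyte genes as well.

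As selected, the azurophil genes were high in the gate cells of every hashtag. Prtn3 was highest of the 4, at 5184, 5920 and 6917 CPM (lowest, median and highest of 8 hashtags) against 23.3, 237 and 404 CPM in the later-stage cells. Elane was at 3772, 5606 and 8296 CPM against 17.0, 264 and 458. Ctsg stood at 2658, 3381 and 3733 CPM against 10.6, 35.4 and 117. Mpo was at 2365, 3091 and 3586 CPM against 7.78, 58.5 and 140. For each of the 4 genes the lowest gate hashtag lay above the highest later-stage hashtag. The later-stage sums do not describe most of their cells. The 4 genes together had a median of 0.00440% of a later-stage cell's UMIs and an upper quartile of 0.0134%. The 30 later-stage cells above the azurophil limit are part of these sums where they carry a single hashtag.

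Camp, Ngp and Ltf, the antimicrobial proteins of the specific granules, were at 134, 83.8 and 27.4 CPM over all 350 gate cells. The erythroid reference cells, which should lack them, had 164, 124 and 34.8 CPM at a similar depth. The rule itself caps these 3 genes in the gate cells, so nothing is read from their level. Lcn2 (lipocalin of specific granules) was close as well, at 112 and 101 CPM. S100a8 and S100a9, which form calprotectin, were at 2178 and 1673 CPM in the gate cells and 1164 and 1394 CPM in the reference. For the 4 azurophil genes the reference stood at 30.2 to 68.6 CPM. The reference was taken outside both groups, so the granule genes of the rule are limited in it too.

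RNA was then compared between gate and later-stage cells within each hashtag, as a log2 ratio of CPM with a pseudocount of 1 CPM, given as mean ± SD over 8 hashtags. Of 9587 genes with at least 100 UMIs, 4574 (47.7%) were higher in the gate cells without overlap between the hashtags of the groups, and 1327 (13.8%) were lower, 61.6% in either direction. These shares are the background against which each list below is to be read. The median log2 ratio of all genes was 0.87. Scaling with trimmed mean of M-values (TMM) factors lowered it by 0.92, to -0.05. Under TMM 2316 genes (24.2%) were higher and 2784 (29.0%) lower, so that higher genes were 45.4% of those without overlap and not 77.5%. Directions below hold under both scalings except where stated, and a ratio near 0.87 is the typical gene.

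Genes that make and load azurophil granules were higher. Of the 7 listed members that the rule did not use, 6 were higher and 1 lower, with a median log2 ratio of 3.46 (2.48 under TMM). Srgn, the proteoglycan that packs granule proteases, was at 1200, 1524 and 2024 CPM (lowest, median and highest hashtag) against 95.5, 178 and 317, a log2 ratio of 3.14 ± 0.55. Ctsc, the dipeptidyl peptidase that activates these proteases, was at 98.1, 154 and 214 CPM against 2.71, 5.15 and 18.9, a ratio of 4.42 ± 1.10. Calr, a chaperone needed for myeloperoxidase folding, was at 1022, 1113 and 1318 CPM against 42.4, 53.4 and 117. Serpinb1a, an inhibitor of neutrophil proteases, was the member that was lower, at 248, 328 and 431 CPM against 700, 779 and 858 (-1.22 ± 0.23).

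The machinery for making protein was higher as a group. All 14 ribosome biogenesis genes passed the filter on low counts and all were higher under both scalings, with a median log2 ratio of 4.00 (3.13 under TMM). Npm1, the nucleolar chaperone nucleophosmin, was at 1552, 1973 and 2096 CPM against 48.8, 90.8 and 192. Ncl (nucleolin) was at 740, 952 and 1210 CPM against 56.6, 83.5 and 131. Myc, the transcription factor that drives this program, was at 49.9, 78.0 and 97.2 CPM against 0.451, 3.31 and 9.45, a ratio of 4.31 ± 0.85. All 15 genes of endoplasmic reticulum folding were higher, median 2.74, and 13 of them under TMM, where Xbp1 turned to -0.27 from 0.71 and, like Herpud1, overlapped. Hspa5, the chaperone BiP, was at 573, 636 and 840 CPM against 64.1, 96.4 and 121. Sdf2l1, a partner of BiP, was at 229, 273 and 368 CPM against 4.24, 10.1 and 17.7.

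Cell cycle genes split by phase. All 16 S phase genes were higher in the gate cells, median 2.59, and 13 without overlap under TMM (median 1.63). Mcm6, a helicase subunit of replication origins, was at 163, 195 and 260 CPM against 8.17, 19.7 and 49.6. Pcna, the sliding clamp, was at 197, 245 and 306 CPM against 25.5, 54.1 and 104. Of 16 genes of G2 and M phase only Aurkb was higher without overlap (1.17 ± 0.53, but overlapping under TMM at 0.19), and the list median was 0.29. Under TMM that median was -0.68 and 5 members were lower, so the list has no direction that both scalings share. Mki67 was at 165, 363 and 404 CPM in the gate cells and 218, 269 and 294 CPM in the later-stage cells. Its log2 ratio was 0.27 ± 0.44 and -0.72 under TMM.

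The fate regulators differed gene by gene. Irf8 was at 275, 306 and 369 CPM in the gate cells against 0.399, 2.50 and 10.8, a ratio of 6.27 ± 0.92. Cebpe was at 54.0, 65.9 and 113 CPM against 443, 470 and 532 (-2.70 ± 0.37). Cebpa, the factor that opens the myeloid program, was higher (2.87 ± 0.59) and Cebpd, of the same family, lower (-1.41 ± 0.32). Myb, a factor of proliferating progenitors, was at 254, 302 and 369 CPM against 31.3, 37.6 and 47.8. Gfi1 overlapped between the groups, with a ratio of 0.91 ± 0.49 and -0.04 under TMM. Runx1 and Cebpb were higher on total UMIs (1.12 and 1.17) but overlapped under TMM at 0.13 and 0.18. Of the 9 granulocyte regulators that passed the filter on low counts, 5 were higher and 3 lower, Csf3r being the third, and 2 and 3 under TMM. Lef1 had no UMI.

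Monocyte lineage genes were higher in the gate cells. Of 15 members that passed, 12 were higher and 1 lower (median 3.27), and under TMM 8 and 1 (Fcgr1 and H2-Aa did not pass). F13a1, a coagulation factor subunit of monocytes, was at 854, 1003 and 1117 CPM against 2.12, 8.22 and 97.2, a ratio of 6.54 ± 1.75. Ly86, the partner of the receptor RP105, was at 160, 190 and 205 CPM against 0.399, 3.99 and 12.8. Ccr2, the chemokine receptor of monocyte egress, was at 99.7, 157 and 175 CPM against 1.35, 3.22 and 23.2. Lgals3 (galectin-3) was the lower member, at 265, 331 and 418 CPM against 524, 629 and 759. Of 9 monocyte and dendritic fate regulators 6 were higher, Zeb2 (4.37 ± 1.11) and Klf4 (5.39 ± 1.28) among them, and 2 lower, Spi1 (-0.49 ± 0.16) and Id2 (-3.54 ± 0.49), and 4 and 2 under TMM.

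Genes of later neutrophil stages were lower. All 12 specific and gelatinase granule genes outside the rule were lower under both scalings, with a median of -6.19. S100a9 was at 883, 1660 and 2732 CPM against 166200, 176365 and 190033, and Ly6g, the neutrophil surface protein, at 2.43, 3.60 and 9.03 CPM against 618, 727 and 865. Mmp8, a collagenase, was at 7.28, 11.3 and 36.7 CPM against 1048, 1317 and 1543. The 6 subunits of the phagocyte oxidase were lower, with a median of -1.86. Cybb, its catalytic subunit, was at 79.3, 118 and 155 CPM against 1353, 1483 and 1510, and Cyba, its membrane partner, at 539, 638 and 752 against 1912, 1969 and 2040. Among 16 granulocyte precursor genes 11 were lower and 3 higher, the latter being Ms4a3, Gstm1 (4.13 ± 0.56) and Tuba1b (1.34 ± 0.31, but overlapping under TMM at 0.35).

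Of 12 progenitor and stem genes that passed, 7 were higher and 1 lower, with a median of 2.45, and 5 and 1 under TMM. Cd34 was at 50.7, 75.7 and 93.1 CPM against 0, 2.36 and 6.26. Kit was at 36.7, 59.0 and 85.1 CPM against 12.3, 16 and 23.3, without overlap on total UMIs and with overlap under TMM (1.82 and 0.86). Erg was the lower gene (-1.01 ± 0.33). Ly6a and Procr, genes of stem cells, did not pass, with 4 and 1 UMIs in the gate sums. Of 12 cytokine receptor chains 3 were higher and 3 lower, and 3 and 7 under TMM, with medians of -0.03 and -1.01. Csf1r (2.78 ± 0.98), Il3ra (2.69 ± 0.30) and Ifngr1 (2.0 ± 0.14) were higher, and Csf3r (-1.86 ± 0.34), Cxcr2 and Il1r2 (both -4.84 ± 0.75) lower.

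The largest ratios outside the lists were, on the high side, those of Gria3, a glutamate receptor subunit (7.46 ± 1.55), Lgals1, galectin-1 (6.53 ± 1.36), Apba1 (5.93 ± 1.65), Dmkn (5.78 ± 0.95), Ass1, argininosuccinate synthase (5.77 ± 0.80), Nrg1 (5.71 ± 1.08) and Phgdh of serine synthesis (5.51 ± 1.15). Lgals1 had the highest level of these, at 862, 995 and 1360 CPM against 3.61, 10.2 and 48.0. Gria3 was at 434, 508 and 560 CPM against 0, 2.41 and 14. On the low side stood AA467197 (-7.52 ± 0.87), Olfm4 (-7.10 ± 0.95), St3gal5, the ganglioside synthase (-7.01 ± 0.73), Inhba, an activin subunit (-6.70 ± 0.69), Plbd1 (-6.66 ± 0.58) and the formyl peptide receptor Fpr2 (-6.65 ± 0.61). For the low genes the gate level is at or near 0. For the high genes named here except Lgals1, the later-stage level is 0 in some hashtags. The ratios on both sides therefore depend on the pseudocount. The plot of levels per hashtag shows genes of each group.

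**Figure D2:**
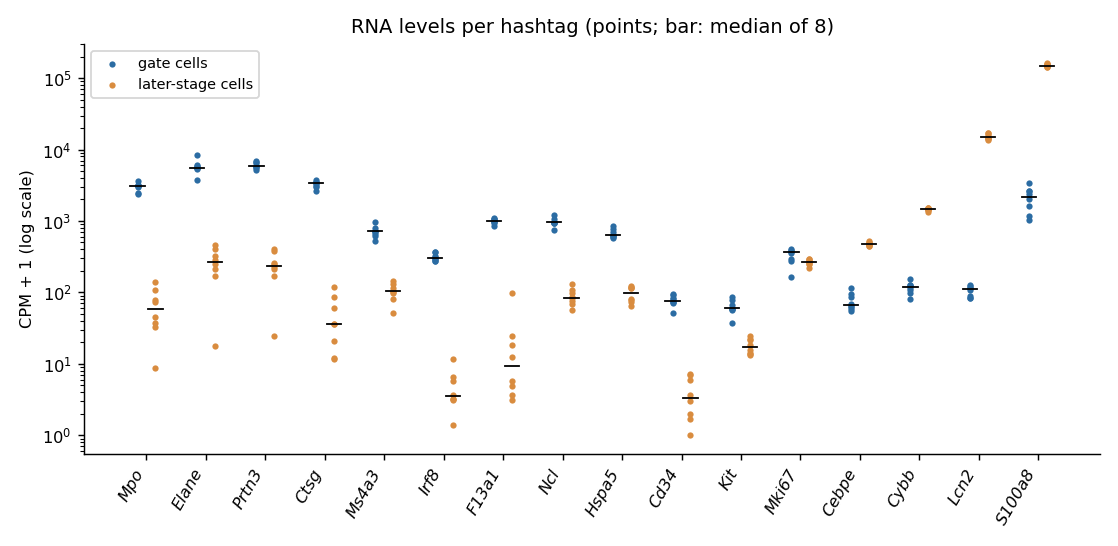
RNA level (CPM + 1, logarithmic axis) of 16 genes in gate and later-stage cells, 1 point per hashtag with a bar at the median of 8. Azurophil, monocyte and ribosome biogenesis genes are high in gate cells, Cebpe, Cybb, Lcn2 and S100a8 are high in later-stage cells, and the Mki67 points overlap.

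Interferon response genes gave 1 higher gene, Bst2 (4.11 ± 1.07), and none lower without overlap among the 9 that passed, with 2 lower under TMM. 4 immediate early genes (Zfp36, Jund, Ier2 and Ier3) were lower and Jun higher on total UMIs (1.43, with overlap under TMM at 0.62), of 8 that passed. Markers of other cells were counted as well. Over 7 T and NK cell genes the gate cells held 2 UMIs in 2 cells, and Cd3e, Cd3g, Trac, Il7r and Ncr1 were at 0 in the sums. Of the B and plasma cell list, Cd79a and Ebf1 were at 0, while Ighm and Cd79b were higher than in later-stage cells, and the list summed to 126 to 157 CPM against 36.0 to 62.2. Ighm overlapped under TMM. Of the stroma and endothelium list, Pecam1 was higher, Col1a1, Col3a1, Cxcl12 and Kdr were at 0, and the sums were 60.6 to 96.6 CPM against 2.12 to 12.5. Of 10 erythroid genes, 6 gate cells held at least 10 UMIs in all. Macrophage genes summed to 15.3 to 41.9 CPM per hashtag and to 9.93 to 34.0 CPM in later-stage cells. Of 6 dendritic cell genes, Siglech and Xcr1 were at 0. The list summed to 7.71, 15.1 and 27.5 CPM against 0, 3.12 and 12, and H2-Ab1, the member that passed, overlapped (2.51). UMIs of the list were in 30.9% of gate cells, 4.39% of later-stage cells and 56.2% of the erythroid reference.

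Basophil, mast cell and eosinophil genes were the list of other cells with the highest counts in single gate cells. The 8 genes summed to 24.2, 99.2 and 1506 CPM by hashtag (lowest, median and highest) against 0.903, 3.61 and 25.8 CPM in later-stage cells. 137 gate cells had at least 1 such UMI and 22 had at least 10. Cpa3, the mast cell carboxypeptidase, had UMIs in 56 cells. A single cell held 994 UMIs of the list, 965 of them of Prg2, the eosinophil major basic protein. Fcer1a was at 0. The part of these cells in the results was not tested.

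On the surface, 13 of the 18 antibodies differed between gate and later-stage cells of the same hashtag, 6 higher (33.3% of those tested) and 7 lower (38.9%). The test was an exact two-sided sign-flip permutation over 8 hashtags on the log2 ratio of mean UMIs per cell, adjusted by Benjamini-Hochberg over 18 antibodies. Its smallest possible p of 0.00781 becomes 0.0128 after adjustment, and all of the calls but CXCR4 and CCR2 have that value.

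CD115, the receptor for macrophage colony-stimulating factor encoded by Csf1r, was at 11, 14.7 and 16.2 UMIs per gate cell (lowest, median and highest hashtag) and 0.569, 0.856 and 3.22 per later-stage cell. The hashtags did not overlap, and the log2 ratio was 3.64 ± 0.97 (12.5-fold, higher in 8 of 8 hashtags). The ckit antibody, to the stem cell factor receptor, was at 23.1, 30.1 and 39.6 UMIs against 3.07, 5.52 and 10.6 (2.38 ± 0.59, 8 of 8). The sort selected some cells on ckit, so its level is partly set by the gate of the sorter.

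CD1632, to the low-affinity Fc receptors, was at 59.9, 76.7 and 90.2 UMIs per gate cell against 25.8, 37.9 and 43.7 (1.02 ± 0.37). Ly6C, also bound by the sorting antibody, was higher in 8 of 8 hashtags (0.83 ± 0.52), though the ranges of 91.2 to 183 and 56.3 to 96.6 UMIs overlapped. CD49d, the integrin alpha chain encoded by Itga4, was at 38.2, 39.9 and 50.9 UMIs against 19.9, 23.5 and 37.5 (0.78 ± 0.42, 8 of 8).

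CD11b, the integrin of mature myeloid cells encoded by Itgam, had the largest difference in the other direction. It was at 4.59, 5.29 and 8.03 UMIs per gate cell and 44.6, 77.5 and 126 per later-stage cell (-3.68 ± 0.47, lower in 8 of 8 hashtags, without overlap). CD24, a glycoprotein of the cell surface, was at 115, 126 and 375 UMIs against 328, 459 and 632 (-1.44 ± 0.62, 8 of 8). The value of 375 is that of hashtag 5, with 50 gate cells, and 1 of them held 11515 CD24 UMIs. CD11a (-0.94 ± 0.43), CD44 (-0.84 ± 0.26) and CXCR2 (-1.0 ± 0.62) were lower in 8 of 8 hashtags as well. CXCR4 (-0.63 ± 0.62, 7 of 8, adjusted p = 0.0352) and CCR2 (-1.31 ± 1.23, 6 of 8, adjusted p = 0.0433) passed the exact permutation test on UMIs per cell but not as a share of all antibody UMIs (adjusted p = 0.0586 and 0.0649). CCR2 antibody was at most 1.00 UMI per gate cell and 2.47 per later-stage cell. Both calls also ended without hashtag 1, 2, 3, 6 or 7, CXCR4 without hashtag 4 and CCR2 without hashtag 5, at adjusted p from 0.0563 to 0.0865.

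CD69, CD64, CD106, CD14 and MHCII missed the threshold, with exact adjusted p of 0.0656 for CD69 and CD64, 0.158 for CD106, 0.190 for MHCII and 0.602 for CD14. With the median of log2 UMIs, CD106 (-1.16) and MHCII (-1.49) passed as lower in gate cells, each with an adjusted p of 0.0117 in the exact test. MHCII antibody ranged from 2.41 to 82.3 UMIs per gate cell by hashtag, with up to 1168 UMIs in a single gate cell. Without hashtag 7, which had the highest value, MHCII passed the exact test (-1.23, adjusted p = 0.0469). CD69 passed without hashtag 8 (-0.95, adjusted p = 0.0402). Antibody and RNA had the same sign of log2 ratio for ckit and Kit, CD115 and Csf1r, CD11a and Itgal, CD11b and Itgam, CD44 and Cd44, CD49d and Itga4, CD24 and Cd24a. The signs were opposed for CCR2, whose Ccr2 RNA was higher (4.65 ± 1.39) and whose antibody was lower. They were also opposed for CD69 (-0.78, Cd69 RNA 3.03), CD14 (-0.16, Cd14 RNA 1.98), CD64 (-0.83, Fcgr1 RNA 0.55) and CXCR4 (-0.63, Cxcr4 RNA 0.02), of which the Cd69 and Cd14 RNAs did not overlap and the other RNAs did. These RNA signs are on total UMIs. TMM factors moved the median of all genes from 0.87 to -0.05, so the sign of Cxcr4 depends on the scaling. Antibody values are per cell and RNA values per total UMIs. Gate cells were deeper by a log2 ratio of 1.66, so the signs are not on 1 scale. MHCII (-0.80) and CD1632 (1.02) had genes of both signs.

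**Figure D3:**
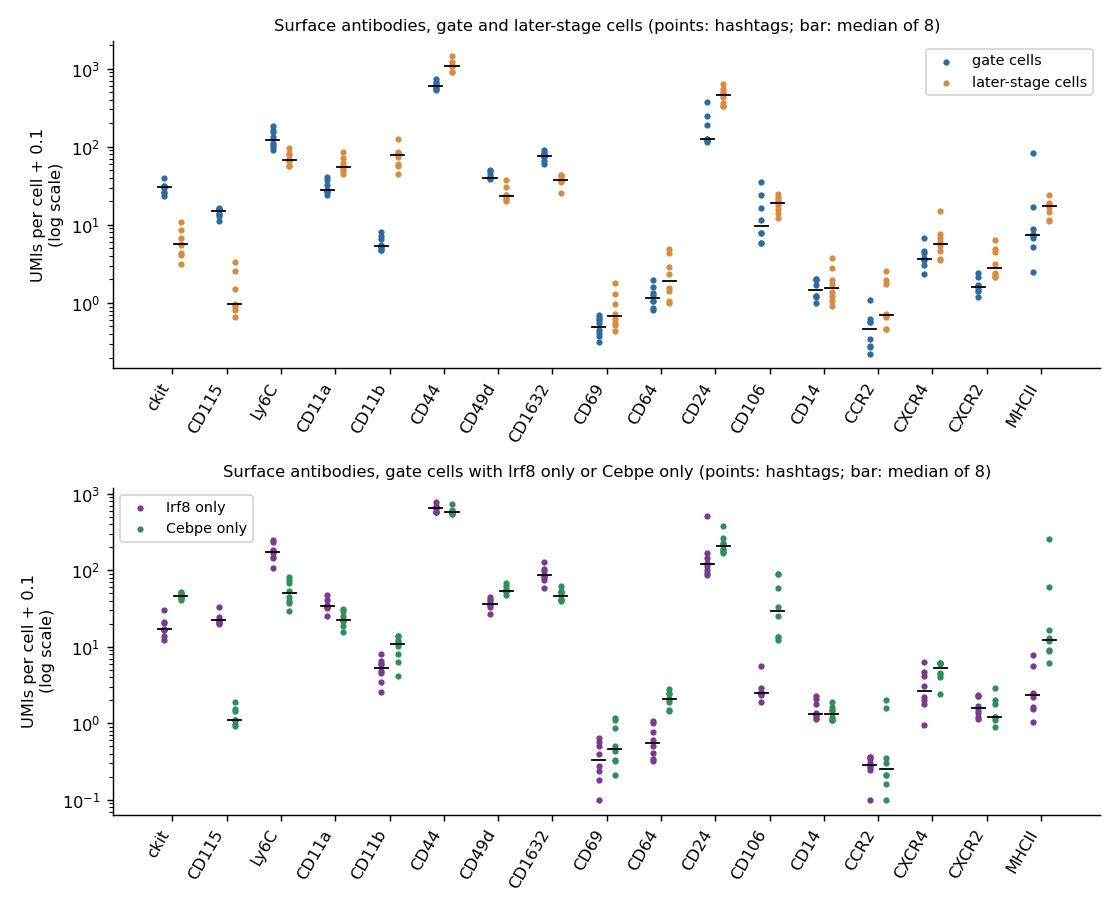
Mean antibody UMIs per cell (0.1 added, logarithmic axis) for surface antibodies, gate and later-stage cells in the upper panel and Irf8-only and Cebpe-only gate cells in the lower, 1 point per hashtag with a bar at the median of 8. CD115 is higher in gate cells and in Irf8-only cells, CD11b is lower in gate cells, and CD106 is higher in Cebpe-only cells.

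The gate cells divided by their Irf8 and Cebpe UMIs. 165 cells (47.1%) had Irf8 and no Cebpe, 83 (23.7%) had both, 75 (21.4%) had Cebpe and no Irf8, and 27 (7.71%) had neither. In all, 70.9% of gate cells had an Irf8 UMI (65.8 to 75.6) and 45.1% a Cebpe UMI (39.8 to 50.5, exact 95% intervals). The shares in later-stage cells were 4.73% and 81.9%, and in the erythroid reference, which should lack both, 6.61% and 3.31%. At 3000 UMIs per cell, with 13 gate and 47 later-stage cells too shallow, Irf8 was in 47.5%, 1.38% and 1.65% of gate, later-stage and reference cells. Cebpe was in 14.8%, 60.1% and 0.826% in the same order. The Irf8 share of later-stage cells is thus at the background, and no order is read from it.

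The first 3 subsets had almost the same depth, with medians of 29595 UMIs in Irf8-only cells, 30180 in cells with both and 29137 in Cebpe-only cells. The cells with neither were shallow, with a median of 3989 UMIs and 9.68% mitochondrial UMIs, and 17 of the 27 were over 5%. They were left out of the comparisons below. By hashtag the sums held 6 to 29 Irf8-only, 4 to 16 double-positive and 3 to 17 Cebpe-only cells, so single values of a small sum rest on few cells. Since 1 UMI decides the class, a cell without Cebpe UMIs may still hold Cebpe RNA.

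RNA was compared between Irf8-only and Cebpe-only cells within each hashtag. Of 7056 genes with at least 100 UMIs, 404 (5.73%) were higher in Irf8-only cells without overlap and 217 (3.08%) lower, 8.80% in either direction. With TMM factors these were 398 (5.64%) and 192 (2.72%), and the median of all genes was 0.10 under both scalings. The split is itself made from RNA, so no test was applied.

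Irf8-only cells carried monocyte genes. Of 14 monocyte lineage genes that passed, 11 were higher and none lower without overlap, with a median log2 ratio of 4.55. Ly86 was at 243, 306 and 345 CPM (lowest, median and highest of 8 hashtags) against 0, 0 and 11.1 in Cebpe-only cells. Ccr2 was at 156, 225 and 263 CPM against 0, 1.98 and 10.1. F13a1 was at 1315, 1461 and 2125 CPM against 36.9, 45.0 and 136 (4.75 ± 0.71). Lgals3 was at 424, 474 and 621 CPM against 0, 7.79 and 13.5, and Ctss, the protease cathepsin S, at 87.7, 113 and 129 CPM against 0, 0 and 6.16. Cd74 and H2-Aa of antigen presentation had 9 and 5 UMIs in all the Irf8-only sums.

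Of 6 monocyte and dendritic regulators that passed besides Irf8, 4 were higher and none lower. Klf4, a factor of monocyte differentiation, was at 102, 130 and 231 CPM against 0, 0 and 3.82. Csf1r was at 69.6, 102 and 124 CPM against 0, 2.32 and 3.95 (5.33 ± 1.14). Zeb2 (1.58 ± 0.37) and Irf5 (4.01 ± 1.43) were the others, while Spi1 was at 277, 300 and 345 CPM against 192, 254 and 311 and overlapped. Cebpb was higher at 252, 300 and 342 CPM against 95.8, 107 and 124 (1.43 ± 0.26). Among the genes with the largest ratios, Ahnak was at 82.0, 100.0 and 223 CPM and had no UMI in any Cebpe-only sum, and Prdx4, a peroxiredoxin of the endoplasmic reticulum, was at 161, 172 and 190 CPM against 0, 0 and 5.73. Il6st, the shared receptor chain of the Il6 family, was at 55.6, 101 and 141 CPM against 0, 0 and 6.72.

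Cebpe-only cells were richest in azurophil genes. Of the 7 listed genes outside the rule, 6 were lower in Irf8-only cells and 1 was higher, with a median of -2.09. Elane was at 9477, 10921 and 14848 CPM in Cebpe-only cells against 2145, 3354 and 4170 in Irf8-only cells. Mpo was at 4189, 5008 and 5603 CPM against 1627, 2044 and 2338, Ctsg at 4662, 5359 and 6561 against 2051, 2273 and 2499, and Prtn3 at 7692, 8963 and 10424 against 4369, 4710 and 5188. The hashtags did not overlap for any of the 4. Prtn3 had the smallest difference of them (-0.92 ± 0.22) and Elane the largest (-1.84 ± 0.49). Nkg7, a granule membrane protein, was at 865, 923 and 1299 CPM against 55.7, 109 and 154, and Prss57, a serine protease of the same granules, at 172, 265 and 419 against 23.9, 39.9 and 58.5. Ctsc went the other way, at 181, 213 and 264 CPM in Irf8-only and 6.16, 24.5 and 45.8 CPM in Cebpe-only cells (3.28 ± 0.85).

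Gfi1 was at 63.3, 93.0 and 149 CPM in Cebpe-only cells against 0, 5.95 and 9.08 in Irf8-only cells (-4.13 ± 1.03). Myb was at 469, 571 and 668 CPM against 152, 176 and 198 (-1.70 ± 0.28). Cebpa overlapped, at 34.3, 47.6 and 81.2 CPM against 7.96, 43.4 and 49.5, as did Csf3r (-0.86 ± 0.98) and Runx1 (0.44 ± 0.27). Ms4a3 was at 1202, 1500 and 1921 CPM in Cebpe-only cells against 271, 349 and 428. Cd63, a tetraspanin of granule membranes, was at 592, 753 and 831 CPM against 6.52, 25.6 and 47.4 (-5.11 ± 0.85). Pglyrp1, a peptidoglycan-binding granule protein, was at 103, 305 and 640 CPM against 2.72, 19.6 and 33.4. Syne1 of the nuclear envelope (-5.35 ± 1.32), Dach1 (-4.47 ± 2.29), Rgcc (-3.53 ± 1.06) and Vcam1 (-4.91 ± 1.36) were also among the 12 largest differences in this direction.

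Granulocyte precursor genes were mixed: of 13 that passed, 6 were lower in Irf8-only cells, 1 (Tuba1b) higher and 6 overlapped. Lcn2 was at 62.9, 91.0 and 137 CPM in Cebpe-only and 55.3, 90.0 and 135 in Irf8-only cells, and Camp at 57.2, 125 and 788 against 95.5, 111 and 150, both near the level in the erythroid reference. S100a8 (-2.03 ± 1.72) and S100a9 (-1.18 ± 2.10) were higher in Cebpe-only cells of 7 and 6 hashtags with overlap. Chil3 was higher in Irf8-only cells of 8 of 8 hashtags (2.01 ± 1.44) with overlapping ranges of 78.2 to 620 and 17.2 to 160 CPM.

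**Figure D4:**
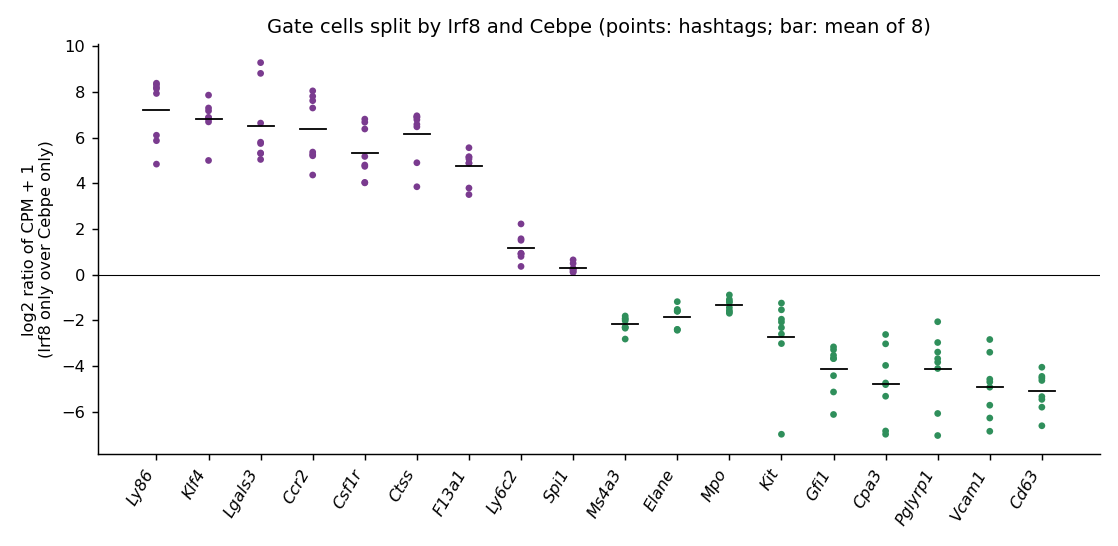
Log2 ratio of CPM + 1 in Irf8-only over Cebpe-only gate cells for 18 genes, 1 point per hashtag with a bar at the mean of 8. Monocyte genes such as Ly86 and Klf4 lie far above 0, Spi1 lies near 0, and azurophil genes, Gfi1, Pglyrp1, Vcam1 and Cd63 lie below 0.

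Of 10 that passed, Kit, Erg, Cdk6 and Bcl11a were lower in Irf8-only cells and Cd48 was higher. Kit was at 92.4, 122 and 162 CPM in Cebpe-only cells against 0, 24.3 and 59.3 (-2.72 ± 1.81). Cd34 overlapped, at 36.8, 51.4 and 114 against 39.8, 71.3 and 87.8 CPM. All 16 S phase genes and all 14 ribosome biogenesis genes overlapped between the subsets, with medians of 0.29 and -0.25. Of 16 genes of G2 and M phase 1, Mki67, was higher in Irf8-only cells (1.24 ± 0.33), but it overlapped under TMM. Of 15 endoplasmic reticulum folding genes, Calr, Pdia3 and P4hb were lower in Irf8-only cells and 12 overlapped. Cytokine receptor genes split, with Csf1r, Il6ra and Csf2rb higher and Ifngr1 lower in Irf8-only cells.

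Among markers of other cells, Cpa3 was at 21.9, 47.1 and 138 CPM in Cebpe-only cells against 0, 1.24 and 3.26 in Irf8-only cells (-4.79 ± 1.60), and 21 of all 75 Cebpe-only cells had a Cpa3 UMI. The basophil, mast cell and eosinophil list summed to 35.6, 123 and 1036 CPM against 6.05, 11.6 and 24.8. Fcer1a, Epx and Prss34 were at 0 in the Irf8-only sums. Of the macrophage list, Vcam1 passed and was lower in Irf8-only cells, while C1qa, C1qb and C1qc did not pass. Of the B cell list, Ighm was higher in Irf8-only cells, at 127, 149 and 186 CPM against 0, 11.2 and 20.3, with Cd79a at 0. The part of these cells in the differences was not tested.

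The surface antibodies, which the split did not use, were compared in the same way. With the planned minimum of 10 cells per subset, 2 hashtags remained. They allow no p below 0.5, so 0 antibodies could be called and 0 had an unadjusted p under 0.05. The minimum was therefore lowered to 3 cells once the cell numbers were known, which admitted all 8 hashtags. Of 18 antibodies 6 were then higher in Irf8-only cells (33.3%) and 5 lower (27.8%) by the exact sign-flip permutation test, with 0.0141 as the smallest adjusted p.

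CD115 had the largest difference. It was at 19.8, 22.1 and 33.1 UMIs per Irf8-only cell and 0.824, 1.00 and 1.78 per Cebpe-only cell (4.34 ± 0.37, 20.2-fold, 8 of 8 hashtags, without overlap). The erythroid reference cells averaged 1.19. Ly6C was at 109, 174 and 252 UMIs against 29.3, 49.7 and 80.8 (1.75 ± 0.44), and Ly6c2 RNA was also higher (1.15 ± 0.58), though its reads may be shared with the near-identical Ly6c1. Both antibodies had an adjusted p of 0.0141 in the exact test, also as a share of all antibody UMIs.

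Other antibodies were higher on Cebpe-only cells. The ckit antibody was at 40.8, 46.7 and 51.8 UMIs per Cebpe-only cell against 12.2, 16.8 and 29.9 (-1.39 ± 0.44). The sort took Gr1- cells only if they were cKit+, and Gr1 also binds Ly6C. The ckit and Ly6C differences of the split are therefore partly set by the sorter. CD106, the adhesion molecule encoded by Vcam1, was at 12.3, 29.1 and 90.2 UMIs against 1.79, 2.42 and 5.56 (-3.56 ± 1.16), so RNA and antibody lay on the same side. CD64 (-2.06 ± 0.95), CD49d (-0.62 ± 0.23) and MHCII (-3.01 ± 1.80) were also lower in Irf8-only cells of 8 of 8 hashtags, each with an adjusted p of 0.0141 in the exact test. The CD64 call ended with medians (-0.75, adjusted p = 0.0865 in the exact test) and at an azurophil limit of 1% (0.0703), and the MHCII call at that limit (0.0511), and both ended with thinned cells (0.0703). CD64 averaged 2.19 UMIs over Cebpe-only cells and 2.39 over the erythroid reference. MHCII was at 6.00, 12.3 and 257 UMIs per Cebpe-only cell. The value of 257 is that of hashtag 7, which had 5 Cebpe-only cells, and 1 of them held 1168 UMIs. The class II RNAs H2-Aa and Cd74 had 1 UMI each in the Cebpe-only sums, and H2-Ab1 was at 6.16, 29.0 and 68.7 CPM. CD64 antibody was at 1.33 to 2.67 UMIs per Cebpe-only cell, and its gene Fcgr1 had 2 UMIs there. Median UMIs per cell in the erythroid reference were 10.0 for CD106 and 8.0 for MHCII. Over all Cebpe-only cells they were 13 and 6.0, so the MHCII median was below that of red cell precursors.

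CD1632 (0.90 ± 0.34), CD11a (0.62 ± 0.29) and CD44 (0.13 ± 0.12) passed on UMIs per cell as higher in Irf8-only cells. Irf8-only cells carried more antibody UMIs in all, with a mean of 2078 against 1407 per Cebpe-only cell. This total does not describe each antibody. It includes 1 antibody that is not reported here, so shares of the total depend on that antibody as well. As a share of all antibody UMIs, CD1632 was no longer called (0.22, adjusted p = 0.149). On that scale CD11a turned to -0.06 (adjusted p = 0.586) and CD44 to -0.55 (0.0141) in the exact permutation test. The CD44 call also ended without any 1 of hashtags 1, 2, 4, 5, 6, 7 and 8, at adjusted p from 0.0511 to 0.0767. CD11b, CD24, CXCR4, CD69, CD14, CCR2 and CXCR2 missed the threshold on UMIs per cell. As a share of antibody UMIs, CD11b (-1.61, adjusted p = 0.0234), CD24 (-1.32, 0.0234), CXCR4 (-1.52, 0.0141), CD69 (-1.66, 0.0325) and CD14 (-0.56, 0.0402) passed the exact test as lower. CD11b, CD24 and CXCR4 also passed with medians, and CXCR4 with a stricter hashtag margin (-0.93, 0.0469). On UMIs per cell, CD11b passed the exact test without hashtag 1 (-1.20, adjusted p = 0.0256) and CD24 without hashtag 5 (-0.95, 0.0256). Hashtag 5 had 29 Irf8-only cells, and 1 of them held 11515 CD24 UMIs.

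Cells with both factors lay between the other subsets in at least 6 of 8 hashtags for 9 of 18 antibodies and for 64 of 175 listed genes that passed the filter. A tie counted as between, also at 0, as for Vcam1 in hashtags 1, 4 and 6, so 64 is an upper count. The other 9 antibodies and 111 genes did so in 5 or fewer, among them CD44 (2), CD11b (3), CD11a (4), Spi1 (2) and Cebpa (1). The values that follow are of readouts that differed between the outer subsets. Their CD115 antibody was at 6.93, 14 and 16.8 UMIs per cell, between the values of the other subsets in 8 of 8 hashtags. Their ckit antibody was at 16.8, 32.6 and 45.9 UMIs, between in 7 of 8. In RNA, Ly86 was at 114, 181 and 221 CPM and Cd63 at 58.7, 168 and 402 CPM, each between in 8 of 8. Elane was at 2699, 5572 and 6658 CPM, Gfi1 at 5.16, 19.9 and 57.3 CPM, and both were between in 7 of 8. Klf4, at 72.2, 90.6 and 220 CPM, and Ms4a3, at 308, 716 and 939 CPM, were between in 6 of 8. Over all 83 cells the CD115 antibody had quartiles of 1.0, 8.0 and 21.0 UMIs, a spread that covers the medians of the Irf8-only (20) and Cebpe-only (1.0) cells. Whether such values come from cells of 1 kind or from a mixture was not tested.

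**Figure D5:**
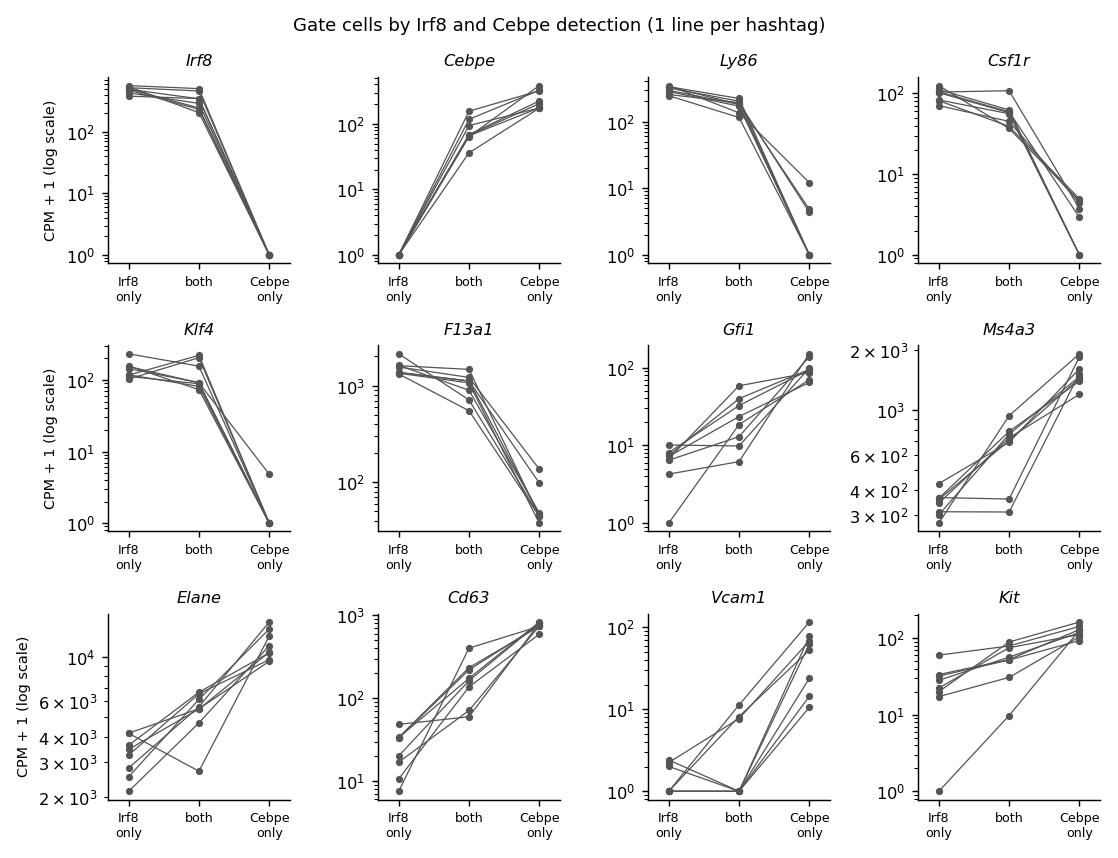
RNA level (CPM + 1, logarithmic axes) of 12 genes in Irf8-only, double-positive (both) and Cebpe-only gate cells, 1 line per hashtag. Irf8 and Cebpe are set by the split. Ly86 and Cd63 take middle values in the double-positive cells of 8 of 8 hashtags, and Elane and Gfi1 in 7 of 8.

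The 30 marrow cells with high azurophil and high specific granule genes, which belong to the later-stage group, all had Cebpe UMIs and 40.0% had Irf8 UMIs. Over these cells Elane was at 6837 CPM, Camp at 27780 CPM and Ms4a3 at 821 CPM, and their median depth was 34027 UMIs. Irf8 was at 135 CPM, below the 299 CPM of the gate cells and above the 14.1 CPM of all later-stage cells. Doublets of 1 hashtag could not be recognised among them, and 16 of the 30 carried a single hashtag, against 322 of the 350 gate cells and 89.6% of marrow cells. The levels just given are over all 30.

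The 20 spleen cells that met the same rule had a median depth of 29036.5 UMIs. They divided into 8 Irf8-only, 4 double-positive, 5 Cebpe-only and 3 cells with neither. Over the 20 cells Elane was at 8042 CPM, Prtn3 at 7162 CPM, Mpo at 3371 CPM, Ctsg at 2672 CPM and Irf8 at 349 CPM, beside 5491, 5762, 2993, 3140 and 299 CPM over the 350 marrow cells. No hashtag had more than 5 of them, so no test of spleen against marrow could be made, and each tissue is 1 library.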

How the data were processed

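Marrow cells were analysed for RNA and antibody UMI counts. The authors deposited raw counts per gene and antibody for each cell, made with Cell Ranger 7.0.1 per the file headers and the submitters' processing notes, which also name mm10. The annotation and any cell filter are not given in the sources used here. Columns of other information in the deposited files (gene names, feature types and barcodes) carried no measurement. The barcode suffix gave the tissue. A hashtag was assigned at a count of at least 20 and 3 times the next. Sums leave out cells without 1 assigned hashtag. No other doublet filter was applied, so doublets of 1 hashtag stayed in.

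The gate was applied to each cell's RNA UMIs. Counts were summed per hashtag and cell group, scaled to CPM of all genes, and compared within hashtags as log2 ratios with a pseudocount of 1 CPM for genes with at least 100 UMIs over both groups. Antibodies were averaged per cell, with at least 10 cells per group and hashtag, and tested by exact sign-flip permutation over hashtags with Benjamini-Hochberg adjustment at 0.05. Hashtag spread is the only error in these p-values. Python 3.11.15, numpy 2.4.6, scipy 1.17.1, pandas 2.3.3 and matplotlib 3.10.9 were used, with TMM factors from edgeR 4.0.16 in R 4.3.3. The scripts were tested on simulated data. Intervals are exact Clopper-Pearson at 95%, and the limit behind a 0 is 3 counts. Depth per group and hashtag stands in the report.

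The gate, the gene lists and the tests were chosen with earlier results of these data known. Named genes follow 1 rule: the genes of the gate and its markers, the 12 largest and 12 smallest log2 ratios without overlap among genes at a mean of 50 CPM or more in a group (leaving aside genes of ribosomes, mitochondria, hemoglobins and immunoglobulins and those with no proper name), up to 5 members per list with the highest level, and each antibody with its gene. Other list members, Ahnak's group level and single cells were named after their values were seen. Ly6c2, Ms4a6c, Ms4a4c, Fcgr3 and Ifi209 are uncertain, since reads of near-identical genes may be divided among them. The planned erythroid reference by hemoglobin share held 0 cells and was replaced by cells outside both groups with at least 3 Klf1 UMIs. The planned edgeR test of spleen against marrow gate cells could not be made, because no spleen sum reached 10 cells. Some list members and 1 antibody that entered the counts are not reported here.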

Additional observations from a re-analysis of the deposited data

Results flagged for a closer look

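Values by hashtag were examined for 1 hashtag far from the other 7 (Dixon's gap against the range), over 69 groups of values. 5 were found (7.25%), and chance gives about 1 in 20. In gate cells, the CCR2 antibody was at 1.00 UMI per cell for hashtag 1, which had 13 gate cells, against 0.125 to 0.520 for the others. The MHCII antibody in gate cells was at 82.3 UMIs per cell for hashtag 7 against 2.41 to 16.8. Hashtag 7 had 23 gate cells, among them the gate cell with the highest count, 1168 UMIs, so 1 cell can shift such a mean. In later-stage cells the CXCR4 antibody was at 15.1 UMIs per cell for hashtag 1 against 3.47 to 7.49. Phgdh RNA in gate cells was at 122 CPM for hashtag 4 against 169 to 205, and Inhba RNA at 2.47 CPM for hashtag 8 against 0 to 1.11.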

How the results depend on the processing

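An azurophil threshold of 0.25% gave 8.03% of marrow cells and one of 1% gave 4.12%. At 1%, Irf8 UMIs were in 65.0% and Cebpe UMIs in 55.6% of gate cells, and at 3000 UMIs per cell in 47.5% and 14.8%. Between gate and later-stage cells, TMM factors gave 2316 higher and 2784 lower genes, and thinning gave 1427 and 720 of 5206 genes tested. Between Irf8-only and Cebpe-only cells, thinning left 47 and 16 of 974 genes, and the 1% threshold 227 and 138. For the antibodies of that split with at least 3 cells, shares of antibody UMIs gave 3 higher and 11 lower, and a split of thinned cells left 6 hashtags and 0 and 0 calls, where the smallest adjusted p was 0.0703. On the share scale CD11a turned to -0.06, CD44 to -0.55 and CD14 to -0.56 (adjusted p = 0.0402), and CD44 was -0.01 with medians. The cause was not tested, except that thinning tests fewer genes or hashtags. Leaving out 1 hashtag at a time gave 6 higher and 5 to 8 lower antibodies for gate against later-stage cells, 5 to 6 higher and 5 to 6 lower for the split with at least 3 cells, and 0 and 0 with at least 10, where leaving out hashtag 4 or 6, the 1% threshold and thinning gave no value. No paired analysis was possible because the planned comparison of spleen and marrow, the one between tissues, was not run, nor were its alternatives; the antibody tests within the marrow are themselves paired by hashtag. Sums of as few as 3 cells limit the split.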
